A study of Mus musculus with 31 samples.

Results

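The semaphorins, plexins and neuropilins of the mouse, 31 of 21938 protein-coding genes, were examined for accessible chromatin in parental NIH-3T3 cells. Members were all protein-coding genes of the GENCODE M21 annotation whose symbol names a semaphorin with its class number, a plexin of class A, B, C or D, or the neuropilins Nrp1 and Nrp2. They comprised 7 secreted semaphorins of class 3, 13 membrane-bound semaphorins of classes 4 to 7, 9 plexins and 2 neuropilins.

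Accessibility was measured by ATAC-seq, which uses the transposase Tn5 to insert adapters into DNA that nucleosomes leave free. NIH-3T3 is an established fibroblast line from mouse embryos, and the parental cells analysed here had no TF transgene. Their labels list no doxycycline, whereas the methods describe doxycycline for NIH-3T3 cells in general. Per the labels, 50000 cells, 0.5 µM Tn5 and 12 PCR cycles were used, while the methods describe a cycle number set by qPCR. Peaks of 1 library were analysed, and the other 30 samples, with overexpression of 13 TFs or, in 4 controls, of rtTA3G alone, were not analysed here. The summit of a peak, its position of highest coverage, lay under a median of 29 fragments, and the shallowest summit under 10. With 1 library there were no replicates, so that all values describe this library and no test was made.

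Semaphorins are secreted or membrane-anchored proteins that guide axons, blood vessels and migrating cells by attraction or repulsion. They bind plexins, transmembrane receptors whose cytoplasmic part acts on the cytoskeleton and on integrins. Most class 3 semaphorins need a neuropilin as the ligand-binding co-receptor beside a plexin, and neuropilins also bind VEGF.

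The fibroblast label was compared with marker genes. A peak within 1 kb of the start (TSS) of any annotated transcript, called a promoter peak below, was found for 12 of 14 fibroblast markers, among them Col1a1, Col1a2, Fn1 and Pdgfrb. Fap and Postn had none. No promoter peak was found for the 7 neuronal markers, and 2 of 7 epithelial and 2 of 7 blood markers had one. Endothelial markers had promoter peaks at 4 of 7 genes (57.1%), led by Cdh5 with a fold enrichment of 12.8, whereas Kdr, Erg and Tie1 had none. Over all protein-coding genes, 53.7% had a promoter peak, so that the endothelial share stood near the background. Fold enrichment is the fragment pileup at the summit over the local expected pileup. Its median was 6.47 at the open fibroblast markers, from 3.41 at Thy1 with 12 fragments to 10.5 at Fn1. At the open endothelial markers the median was higher, 7.59. Whether a few cells of another kind contributed to these peaks was not tested.

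The distal elements with the highest fold enrichment are shown first. A distal peak lay more than 1 kb from every annotated TSS of any gene. The 10 distal peaks with the highest fold enrichment had values from 14.3 to 20.0, and 6 of them were in the body of Sema3a. The AP-1 consensus TGANTCA, at the summit or in the 50 bases to either side of it, was found in 31.9% of all distal peaks. It was found in 36.8% of those of at least 5-fold enrichment, and no share was taken among peaks as high as these 10. Of the 10, 5 held it. The windows of the 4 that overlapped no exon, picked because they held it, are given on the plus strand of GRCm38, with the consensus on either strand in capitals. They are chr5:13365223-13365323, upstream of the principal TSS of Sema3a but inside its annotated body, chr5:13477847-13477947 in intron 5 of Sema3a, chr1:62678686-62678786 in the upstream flank of Nrp2, and chr5:13355072-13355172, again inside the body of Sema3a and upstream of its principal TSS.
Sema3a, rank 1: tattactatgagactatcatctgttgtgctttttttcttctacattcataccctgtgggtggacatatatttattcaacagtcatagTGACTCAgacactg
Sema3a, rank 2: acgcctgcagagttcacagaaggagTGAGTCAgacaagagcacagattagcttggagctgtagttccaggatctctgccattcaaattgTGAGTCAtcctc
Nrp2, rank 3: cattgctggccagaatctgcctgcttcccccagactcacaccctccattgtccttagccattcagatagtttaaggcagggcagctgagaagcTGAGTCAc
Sema3a, rank 9: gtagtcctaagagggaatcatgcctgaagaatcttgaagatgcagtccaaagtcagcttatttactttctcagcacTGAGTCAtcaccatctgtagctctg
The consensus stood away from the summit itself in all 4 windows, with its middle base 22 to 46 bases from it. The Sema3a window of rank 2 held it on both sides of the summit. Fold enrichments of these peaks were 20.0, 18.7, 16.7 and 14.6 in the order shown. They rested on 152, 85, 127 and 55 fragments, with exact Poisson intervals from 129 to 178 for the first and from 41.4 to 71.6 for the last. Such intervals, like all others here, cover counting error only.

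Across the family, 21 of 31 members (67.7%) had a promoter peak, against 53.7% of all protein-coding genes. Members had more annotated starts, with a median of 6 against 3, and thus more places at which a peak could count. With the principal TSS alone, that of the best-ranked transcript of each gene, 15 members (48.4%) had a peak, against 49.4% of all genes. The share of members with an open promoter thus stood near the background once each gene had 1 start. Of the 21, 13 had 1 promoter peak and 8 had a pair.

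Promoter peaks of the members were mostly modest. The highest promoter peak of each open member had a median fold enrichment of 7.08 (quartiles 4.85 and 8.75), against 9.86 over all open coding genes, and only Sema3a, Sema6a, Sema6c, Sema3c and Plxna2 exceeded the latter value. The median peak width was 539 bp against 796 bp. The median depth at the summit was 43 fragments against 64, and 9 of 21 members were above 64. At the 14 open members with a CpG-rich principal TSS, as defined below, the median was 72.5 fragments against 68.0 over such genes, and at the 7 others 32 against 48. The median fold enrichment of members was lower in both classes, with 7.16 against 10.2 and 6.58 against 8.14. The peak itself can lie at another start, and those of Sema4d and Sema6b lay at starts that were not CpG-rich. In a bulk library, a site open in few cells and a site cut rarely in every cell cannot be told apart.

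**Figure D1:**
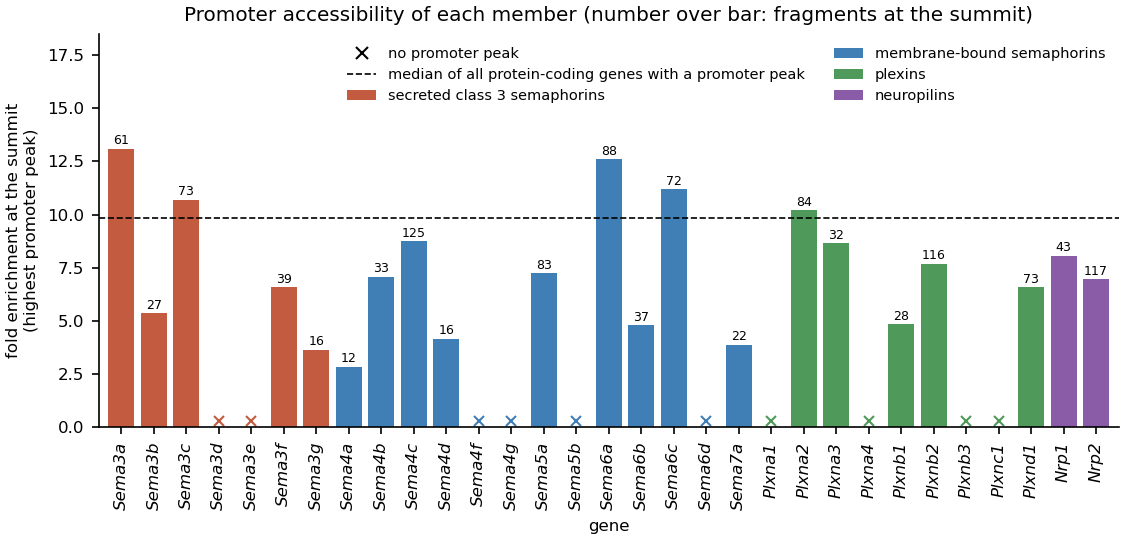
Fold enrichment of the highest promoter peak of each of the 31 members (bars, coloured by role, with the fragments at the summit above each bar); crosses mark the 10 members without a promoter peak, and the dashed line is the median of all open coding genes, 9.86. Of the 21 bars, 5 reach above the line.

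The 2 scales ranked the members differently. By fragments, the leading promoters were Sema4c with 125 (95% interval 104 to 149), Nrp2 with 117 (96.8 to 140) and Plxnb2 with 116 (95.9 to 139). Their expected pileups were 13.4, 15.9 and 14.2, against a median of 5.08 for open members, and their fold enrichments of 8.75, 6.98 and 7.69 were accordingly moderate. Sema3a, first by fold enrichment, rested on 61 fragments (46.7 to 78.4) over an expected 3.72. The order of members by fold enrichment thus depended on the local background as well as on the fragments.

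Secreted class 3 semaphorins had promoter peaks at 5 of 7 genes. Sema3a, which repels axons through Nrp1 and class A plexins, had the highest fold enrichment of all members, 13.1. This peak (chr5:13399193-13399620) was not at the principal TSS but at the start of a single protein-coding transcript 2.52 kb downstream. The nearest peak to the principal TSS was 2409 bp away. Sema3c, which guides neural crest cells into the outflow tract of the heart, had a peak of 10.7 across its principal start (chr5:17574017-17575250) and a smaller one of 4.18 just upstream. Sema3f, whose preferred co-receptor is Nrp2, had a peak of 6.58 beside its principal start. Sema3b was the sole member with promoter peaks at 2 separate groups of starts, of 5.36 and 4.43, both downstream of the principal TSS. Sema3g had a weak peak of 3.65 with 16 fragments, within 1 kb of a TSS of Nisch as well, so that its assignment to either gene is uncertain.

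Sema3d and Sema3e were the closed members of this class. The nearest peak to any start of Sema3d was 9198 bp away. For Sema3e, which binds Plxnd1 without a neuropilin, it was 22554 bp away. Both had CpG-rich promoters, whereas the 5 open class 3 genes did not. CpG-rich here means a CpG observed to expected ratio of at least 0.6 and a GC content of at least 50% in the 250 bases to either side of the principal TSS. Sema3c missed this class by its GC content of 46.5% alone. Its ratio of 0.71 was above those of Sema3d (0.68) and Sema3e (0.69). The highest promoter peaks of Sema3a and Sema3b lay at other starts, 2.52 and 7.06 kb from the principal TSS, which were not CpG-rich either.

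The 150 bases before the TSS are given 5′ to 3′ for Sema3a (chr5:13399159-13399308, plus strand, at its open internal start), Sema3c (chr5:17574131-17574280, plus strand) and Sema6c (chr3:95160307-95160456, plus strand, before the start of a processed transcript 0.0480 kb from the principal TSS), 3 of the 5 highest promoters. They were chosen after their values were seen, and none overlaps an annotated exon. Capitals mark matches on either strand to AP-1 TGANTCA, SP/KLF GGGCGGG, NFY CCAAT, NRF1 GCGCATGC, CRE TGACGTCA and ETS CCGGAAG.
Sema3a: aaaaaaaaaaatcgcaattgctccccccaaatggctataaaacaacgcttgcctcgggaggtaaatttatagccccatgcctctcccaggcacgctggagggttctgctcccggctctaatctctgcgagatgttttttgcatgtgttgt
Sema3c: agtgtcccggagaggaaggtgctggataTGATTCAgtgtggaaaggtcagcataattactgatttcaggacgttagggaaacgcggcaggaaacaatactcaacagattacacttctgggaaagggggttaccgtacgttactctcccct
Sema6c: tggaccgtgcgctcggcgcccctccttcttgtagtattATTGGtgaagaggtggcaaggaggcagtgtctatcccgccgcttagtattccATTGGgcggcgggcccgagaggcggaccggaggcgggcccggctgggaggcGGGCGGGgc
Sema3a held none of the 6 consensus sequences, and Sema3c held 1 AP-1 match. Sema6c held 2 NFY matches and 1 SP/KLF match. GC contents were 48.0% for Sema3a and Sema3c, with 6 CpGs each, and 68.0% for Sema6c, with 15, where the median over all coding genes was 6 CpGs. Before the principal TSSs of all coding genes, AP-1 was found in 3.45%, SP/KLF in 27.0%, NFY in 26.9%, NRF1 in 2.38%, CRE in 1.81% and ETS in 7.05%. Among the members, SP/KLF was found in 19 of 31, NFY in 3, AP-1 in 2, NRF1 and ETS in 1 each and CRE in 0. The SP/KLF letters are themselves rich in G and C, as are the members' promoters, with a median GC content of 65.9% against 57.9% over all genes, but shares at equal GC content were not compared.

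Membrane-bound semaphorins had promoter peaks at 9 of 13 genes, but at the principal TSS of only 5. The highest fold enrichments were those of Sema6a and Sema6c of class 6, transmembrane ligands of class A plexins, while Sema4c had the most fragments. Sema6a had a peak of 12.6 with 88 fragments (70.6 to 108) across its principal start. Sema6c reached 11.2 with 72 fragments (56.3 to 90.7). Sema6b had only weaker peaks of 4.79 and 3.94, at a protein-coding start 6.50 kb from the principal TSS. Sema6d had no promoter peak, and the nearest peak to any of its starts was 7205 bp away.

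Class 4 was mixed, with 4 of 6 genes open and 1 of 6 at the principal TSS. Sema4c, a ligand of Plxnb2, had the widest promoter peak of the members, 2125 bp, which also lay within 1 kb of a TSS of D430040D24Rik. Sema4b had a peak of 7.08 at an internal start 11.6 kb from the principal TSS. For Sema4d, a ligand of Plxnb1 and CD72, the peak of 4.16 lay 45.0 kb from the principal TSS, beside the start of a processed transcript. For Sema4a, a regulator of T cells, the peak of 2.85 lay 20.0 kb away, beside the start of a transcript with a retained intron and near Mir7011. Its −log10 q of 1.97 was the lowest among the promoter peaks of the members, and it was lost at the stricter q thresholds. Sema4f and Sema4g had no promoter peak, with nearest peaks at 2998 and 5542 bp.

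In classes 5 and 7, the paralogues Sema5a and Sema5b differed. Sema5a, which carries thrombospondin repeats, had a peak of 7.25 with 83 fragments at its principal TSS, within 1 kb of a TSS of the non-coding gene Snhg18 as well, and a second peak of 2.60. Sema5b had no promoter peak, the nearest being 14277 bp away. Sema7a, which is held by a GPI anchor and binds Plxnc1 and β1 integrin, had a weak peak of 3.88 with 22 fragments.

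Plexins had promoter peaks at 5 of 9 genes, all at the principal TSS. Plxna2, a receptor of class 6 semaphorins, had the highest (chr1:194619569-194620740), 10.2 with 84 fragments (67.0 to 104), and a smaller peak of 5.14 upstream. Plxna3 had 8.67, Plxnb2 7.69 and Plxnb1 4.85. Plxnd1, the receptor of Sema3e in vessel patterning, had a peak of 6.59 with 73 fragments across its start, with the summit just upstream. A smaller peak of 2.93 lay just inside the gene. Open plexin promoters had a median of 73 fragments, with single values from 28 to 116. The medians were 39 for the open class 3 genes, 37 for the open membrane-bound ligands and 80 for the 2 neuropilins. Median fold enrichments were closer, with 7.69, 6.58, 7.08 and 7.52 in that order.

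Plxna1, Plxna4, Plxnb3 and Plxnc1 had no promoter peak. The nearest peaks to any start were 2316 bp away for Plxna1 and 2896 bp for Plxna4. For Plxnc1, the receptor of Sema7a, and Plxnb3, a receptor of Sema5a, they were 13612 and 20760 bp away. Plxna1, Plxna4 and Plxnc1 had GC contents of 78.8%, 76.6% and 75.6%. With Plxnd1, which was open at 75.2%, they were the 4 members in the CpG-rich class of at least 75% GC, in which 77.0% of 991 coding genes had a promoter peak. Thus 1 of 4 members in this class was open. In the other CpG-rich classes, 1 of 1 was open at 50 to 55% GC, 0 of 2 at 55 to 60%, 3 of 4 at 60 to 65%, 4 of 5 at 65 to 70% and 5 of 7 at 70 to 75%, against 83.2%, 85.3%, 84.7%, 80.6% and 78.0% of all genes.

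Both neuropilins had promoter peaks. Nrp2 had a peak of 1034 bp across its start (chr1:62702858-62703891), with a fold enrichment of 6.98. At Nrp1 the higher peak (chr8:128356976-128357953), of 8.07 with 43 fragments (31.1 to 57.9), had its summit at -1269 bp from the nearest start, upstream of the gene. A peak of 3.46 with 18 fragments (10.7 to 28.4) lay by the principal TSS itself, and within 1 kb of a TSS of Mir1903 as well. Neither peak of Nrp1 thus matched the depth of that of Nrp2, whose interval of fragments began at 96.8.

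Of 9 textbook pairs, chosen after these values were seen, 5 had promoter peaks at both genes. They were Sema3a with Nrp1, Sema3f with Nrp2, Sema4c with Plxnb2, Sema4d with Plxnb1 and Sema6a with Plxna2. The peaks of Sema3a and Sema4d were not at the principal TSS. That of Sema4d, of 4.16 with 16 fragments, lay 45.0 kb from it beside a processed transcript. Sema6d and Plxna1 were both without. With 67.7% of all members open, several pairs with peaks at both genes are expected from the single genes alone. Sema3e lacked a peak where its receptor Plxnd1 had one, and Sema5a and Sema7a had one where Plxnb3 and Plxnc1 lacked it.

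Among the members, CpG-rich promoters were not the more often open class. CpG-rich promoters were found for 23 of 31 members (74.2%), against 49.8% of all coding genes. Of these 23, 14 (60.9%) had a promoter peak, against 81.8% of all CpG-rich genes. Of the 8 other members 7 did, all but Plxnb3, against 25.9% of all other genes. At the principal TSS alone the counts were 11 of 23 and 4 of 8, against 79.5% and 19.6%. Hence 9 of the 10 closed members had a CpG-rich promoter.

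**Figure D2:**
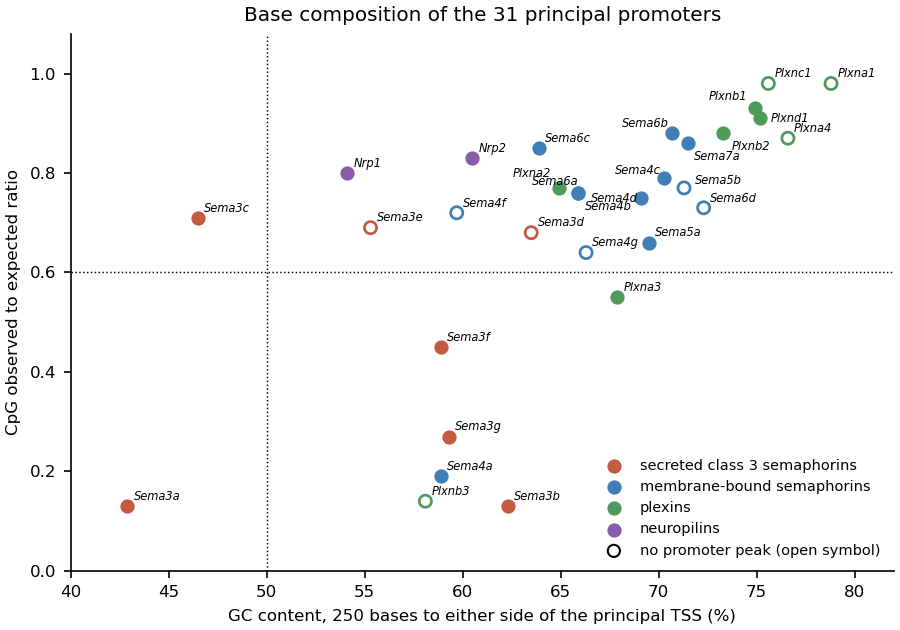
GC content against CpG observed to expected ratio at the principal TSS of each of the 31 members, coloured by role; filled symbols had a promoter peak, open symbols had none, and dotted lines mark the limits of the CpG-rich class. The upper right corner holds 9 of the 10 open symbols, and Plxnb3 lies below the limit.

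Peaks beyond the promoters were counted in the gene body with 25 kb to either side. The 31 windows held 220 peaks, of which 29 were promoter peaks of the members, 40 were within 1 kb of a TSS of another gene and 151 were distal. Distal summits lay in introns of the principal transcript for 82, upstream of the gene for 39, downstream for 19, elsewhere in the gene body for 8 and in exons for 3. Of the 58 in the flanks, 13 were inside another coding gene. Distal peaks of the members had a median fold enrichment of 5.72 against 5.54 over all distal peaks, and a median of 28 fragments against 25.

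Sema3a held 6 of the 10 distal peaks with the highest fold enrichment. Its body of 477152 bp held 15, with a median fold enrichment of 11.9. By depth it did not lead, with a median of 46 fragments against, for example, 55 at Nrp2 and 48.5 at Plxna2. They ran from -172 to 131 kb around the principal TSS, 8 upstream of it and 7 downstream, all within the annotated gene. Of the 15, 8 reached a fold enrichment of at least 10, as did 19.2% of the distal peaks of all members and 15.2% of all distal peaks. The members together held 29 such peaks, spread over 13 genes. Its other 3 peaks among the 10 highest had fold enrichments of 15.1, 15.1 and 15.0. Among genes of at least 400 kb, 354 in all, the median density was 0.939 peaks per 100 kb, and the members of that length had 5.18 (Sema5a), 3.41 (Sema3a), 1.42 (Plxna4) and 0.319 (Sema6d).

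Sema5a had the most distal peaks, 23, of which 6 were in intron 1. They had a median fold enrichment of 4.70, and 2 reached 10, namely one of 16.4 with 145 fragments at 62.0 kb into the gene and one of 11.5 with 78 fragments at 78.2 kb. Plxna2 had 12 distal peaks with a median of 9.83, of which 5 reached 10, and the highest was 15.8 at 162 kb, in intron 13. Sema3c had 11, with the highest, 14.3, at -18.0 kb, and Nrp2 had 11, with the highest, 16.7, at -25.0 kb.

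Other members had fewer distal peaks or none. Nrp1 had 1 distal peak, of 9.19, in contrast with 11 at Nrp2. Plxna3 and Plxnb3 had 0. Of the 10 members without a promoter peak, all but Plxnb3 had at least 2 distal peaks. Plxna4 had 7 up to 11.0, Sema3d, Sema4f and Sema4g had 5 each, and Sema6d had one of 12.2. Of the open members, Plxnb1, Sema4c and Sema6b had 1 each, like Nrp1.

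**Figure D3:**
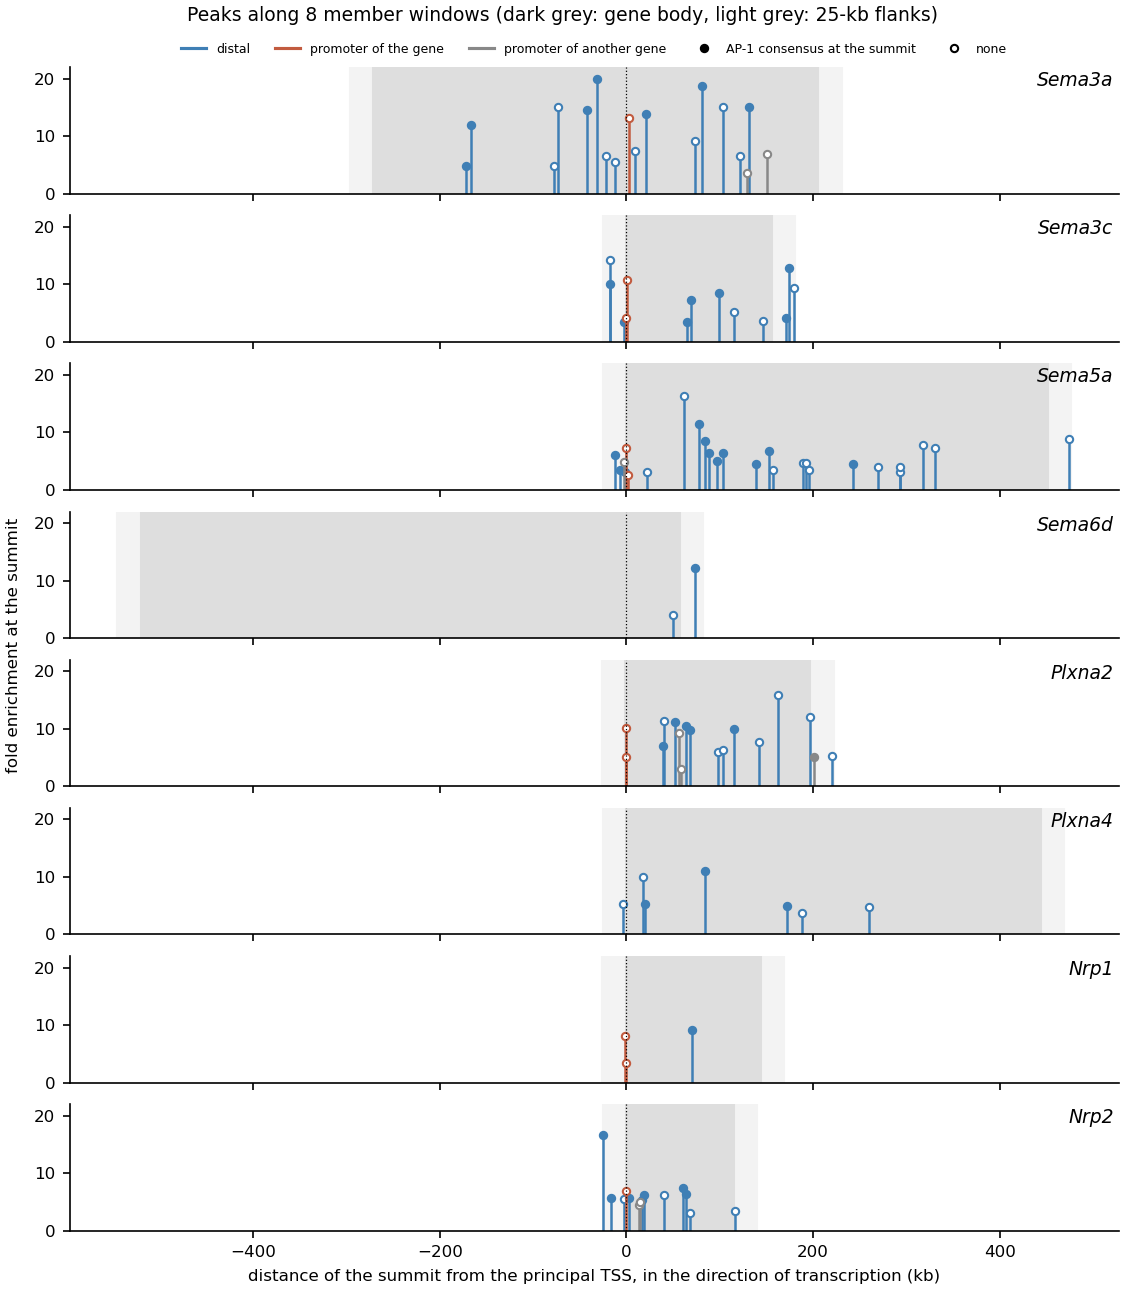
Peaks along the windows of 8 members, with the distance of each summit from the principal TSS (kb) on the horizontal axis and its fold enrichment on the vertical axis; colours give the kind of peak, and filled symbols held the AP-1 consensus within 50 bases of the summit. Sema3a holds 15 distal peaks up to 20.0, Nrp2 holds 11 and Nrp1 holds 1.

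The AP-1 consensus was common in these elements. TGANTCA was found at 61 of 151 distal summits (40.4%, 95% interval 32.5 to 48.7), against 31.9% of all 47192 distal peaks, and these 61 lay at 22 members. Sema5a had 10, and Sema3a, Sema3c and Nrp2 had 7 each. Distal peaks of the members with the consensus had a median fold enrichment of 6.34 and those without 4.89, against 6.30 and 5.25 over all distal peaks. Without the window of Sema3a the share was 39.7% (31.4 to 48.4), and without that of Sema5a 39.8% (31.3 to 48.9). Both intervals include the share over all distal peaks, as do those with flanks of 10 kb (30.2 to 48.7) and 50 kb (30.8 to 44.6). Under the other alternatives the interval began above the share of all distal peaks under the same setting, narrowly so with 25 bases to either side of the summit (16.7 against 16.5%) and more clearly at the strictest q threshold (37.6 against 34.4%). Peaks of 1 gene share their surroundings and are not independent, so the interval understates the uncertainty.

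The other consensus sequences searched at distal summits were less frequent. The NFI half-site TTGGCA was found in 11.9% of the members' distal peaks (7.22 to 18.2) against 7.66% of all, and the TEAD sequence GGAATG in 8.61% against 9.52%. RUNX TGTGGTT was found in 3.97% against 5.05%, the CTCF core CNAGGNGGC in 3.97% against 3.71%, and ETS CCGGAAG in 0.662% against 0.729%. At the 29 promoter peaks, SP/KLF was found in 17.2% against 21.4% of all 13923 promoter peaks, and NFY in 13.8% against 20.6%. ETS, NRF1 and CRE were found in 0 of 29, which allows up to 11.9%, against 8.19%, 1.82% and 1.53%. For each of these sequences the share over all peaks lay within the members' interval.

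Peak density depended on gene length. The windows of the members held a median of 5.37 peaks per 100 kb against 3.83 over all coding genes, and 20 of 31 members were above the latter. The 17 members under 50 kb had a median of 6.65 against 4.12, and 16 of them were above it. Those of 50 to 150 kb had 2.53 against 3.64, with 2 of 5 above, and those over 150 kb 1.96 against 2.17, with 4 of 9 above. For distal peaks alone, members under 50 kb had 3.80 against 1.65, with 13 of 17 above, those of 50 to 150 kb 1.90 against 2.14, with 2 of 5 above, and those over 150 kb 1.96 against 1.70, with 5 of 9 above. The medians of members and all genes also depended on the settings, with 3.96 and 0.419 without flanks, and 3.33 and 2.42 for peaks of at least 5-fold enrichment.

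**Figure D4:**
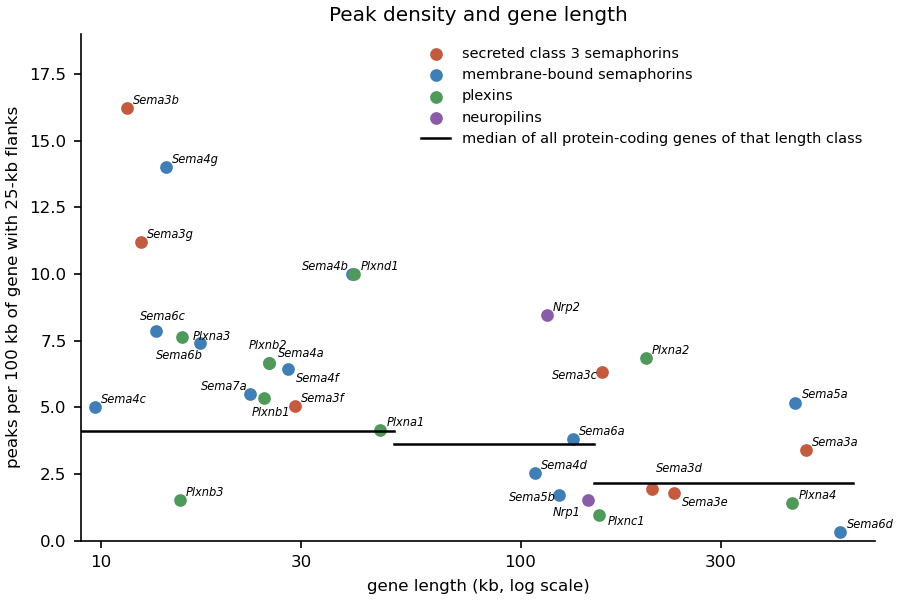
Peaks per 100 kb of gene with 25-kb flanks against gene length (log scale) for the 31 members, coloured by role; black lines are the medians of all coding genes under 50 kb (4.12), of 50 to 150 kb (3.64) and over 150 kb (2.17). Short members lie mostly above their line, and Plxnb3 is the exception.

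The densest windows were those of Sema3b, with 16.2 peaks per 100 kb, Sema4g, with 14.0, and Sema3g, with 11.2. At Sema3b, 6 of the 10 peaks were at promoters of other genes, at Sema4g 4 of 9 and at Sema3g 3 of 7. The sparsest were Sema6d with 0.319, Plxnc1 with 0.981 and Plxna4 with 1.42, all without a promoter peak. The density of the densest windows thus included promoters of neighbours, while short members as a group were above all genes for distal peaks alone as well.

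Genes that act with the semaphorin receptors were examined as well. Of 32 such genes, 27 of them CpG-rich, 25 (78.1%) had a promoter peak, with a median fold enrichment of 9.24, against 53.7% of all coding genes and 81.8% of the CpG-rich ones. The highest were Mical3 (15.9), of the oxidoreductases that act on actin below plexins, Farp2 (15.2), an exchange factor bound by class A plexins, Fyn (14.7), a kinase of the Sema3a response, Gipc1 (14.1), an adaptor that binds Nrp1, and Met (13.8), a receptor kinase that associates with class B plexins. Dpysl2 and Dpysl3, of the CRMP family of Sema3a mediators, had peaks of 9.97 and 9.24, whereas Crmp1, Dpysl4 and Dpysl5 had none. L1cam, Kdr, Fes and Cd72 had none either. These genes overlap the endothelial markers at Kdr and Flt1.

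Other guidance families gave a mixed picture beside the members. Ephrins and their Eph receptors had promoter peaks at 13 of 22 genes (59.1%) with a median fold enrichment of 6.21, beside the 7.08 of the members, and a median of 3.81 peaks per 100 kb. Slits, Robos, netrins and the Dcc and Unc5 receptors had them at 5 of 19 (26.3%), against 53.7% of all coding genes. Their median of 1.10 peaks per 100 kb came with a median length of 162 kb, and all genes over 150 kb had 2.17. Among CpG-rich genes, 63.2% of the ephrins and Eph receptors had a promoter peak, and 30.8% of the Slit to Unc5 group. Like the 60.9% of the members, both shares were below the 81.8% of all CpG-rich genes.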

How the data were processed

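The values come from the ATAC-seq peak list of the parental line, called from a single library. The submitters' processing notes name STAR 2.5.3a, Picard, MACS2 2.1.1.20160309, SAMtools and deepTools, and per the methods, uniquely mapped read pairs on mm10 without duplicates were used to call peaks on whole fragments. For the parental peaks the methods refer to the ChIP-seq description, in which peaks shared with input or in blacklisted regions were removed. Whether the deposited list was filtered in this way is not known, and such a filter could have removed a promoter peak. The authors deposited for each peak a fold enrichment (the pileup at the summit as a ratio to the pileup expected locally, after adding 1 to both), a −log10 p and a −log10 q of a Poisson test, and a score, which is the −log10 q on another scale. The list does not hold the number of reads, and the methods mention no shift of read ends for Tn5. From fold enrichment and −log10 p, the fragments at each summit were solved as whole numbers (tolerance 0.05), with 1 peak not whole; the step was first tested on simulated data.

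Coordinates are those of mm10 (GRCm38), counted from 1, with GENCODE M21 transcripts and bases of the GRCm38 reference. The principal TSS is that of the transcript with the best APPRIS tag, then the longest. Consensus sequences were counted on either strand. One promoter sequence is not reported here. Intervals are 95% exact, Clopper-Pearson for shares and Poisson for fragments, and cover counting error only.

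Named in full were members without a promoter peak, the 5 highest and 3 lowest by promoter fold enrichment, the 3 densest and 3 sparsest windows, members open at 2 or more groups of starts over 1 kb apart, Plxnd1, Nrp1, Nrp2 and the 10 highest distal peaks; other members and pathway genes were named, and the fold of 10 and the gene length of 400 kb set, after the values were seen. Members and lists were chosen with earlier results of these data known. Alternatives were other q and fold thresholds, TSS distances, transcripts, flanks, summit windows and CpG rules. Calculations ran in Python 3.11.15 with SciPy 1.17.1, pysam 0.24.0, pandas 2.3.3, matplotlib 3.10.9 and NumPy 2.4.6.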

Additional observations from a re-analysis of the deposited data

How the results depend on the processing

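Counts and medians were taken as moved beyond 1.5 times the reported value, and shares beyond its 95% interval. Of the alternative settings, 44 gave a value within these limits. The count of members with a promoter peak was between 15 and 21 throughout, against 21, the median fold enrichment of their highest promoter peaks was between 6.98 and 8.07, and the share of CpG-rich promoters was 71.0% under both other rules, against 74.2%. The 15 came from peaks of at least 5-fold enrichment and, in a setting chosen after seeing the data, from the principal TSS alone. Of all coding genes, 48.8% and 49.4% had a peak under these settings. The 15 of 31 members (48.4%) thus stood near the background in both, unlike under the main setting. Keeping peaks of at least 5-fold lowered the peaks in the windows from 220 to 134 and their median density to 3.33 per 100 kb, by construction, and raised the AP-1 share to 50.0% (36.8% of all distal peaks). Without flanks the windows held 121 peaks, and the ratio of the members' to the all-gene median density rose from 1.40 to 9.46, since the all-gene median fell to 0.419. Among genes of at least 50 kb this ratio reversed to 0.701; the cause was not tested. Counting distal peaks alone, also chosen after seeing the data, gave a median of 2.85 per 100 kb. The AP-1 shares without Sema3a or Sema5a were added after seeing the data as well. The AP-1 share was 23.2% with 25 bases to either side of the summit and 54.3% with 100, against 16.5% and 44.4% of all distal peaks. Weak promoter peaks such as that of Sema4a rest on as few as 12 fragments, and a promoter without a peak may hold accessibility not detectable at this depth.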
